A study of Mus musculus with 9 samples.

Results

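The 5 genes described here encode homeodomain transcription factors of the posterior embryo. Cdx1, Cdx2 and Cdx4 are the vertebrate caudal genes, and Nkx1-2 and Evx1 are homeobox genes of the caudal epiblast and primitive streak. They were taken by symbol from a table of 24736 mouse genes, in which all 5 were present with 1 row each. Poly(A) RNA was sequenced from 9 cultures in which mouse embryonic stem cells had become caudal epiblast-like cells (CEpiLCs), a culture model of the progenitors that extend the trunk. Every culture received bFGF (10 ng per ml), a fibroblast growth factor, and LGK974, a Porcupine inhibitor that blocks WNT secretion, at 5 uM. The GSK3 inhibitor CHIR99021, which switches on the WNT pathway, was present for the last day, and cells were collected at 72 h (day 3). The 3 groups were wild type (WT), Cdx1/2/4-/- (CdxKO) and T/Bra-/- (T/BraKO), with 3 biological replicates each. The study's methods derive its stem cell lines from the XY line HM1 TetON, which served as WT, and the labels name no second line or clone for any genotype. Genotype and cell line therefore cannot be told apart.

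In the embryo, WNT, FGF and retinoic acid signals switch on the Cdx genes in the primitive streak and caudal epiblast. CDX proteins bind AT-rich sites and activate Hox genes of the trunk, and they are needed for the body axis to elongate. Nkx1-2 marks the caudal lateral epiblast and the preneural tube, a domain that holds neuromesodermal progenitors, the common source of spinal cord and trunk mesoderm. Evx1 marks the posterior primitive streak. T (Brachyury), the T-box factor removed in T/BraKO, is needed for mesoderm formation.

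Total expected counts ran from 25124337 to 34705355 per library, and the ribosomal RNA gene Rn45s took 0.343% to 4.21% of them. Libraries with the same replicate number departed from their genotype means together, with correlations across 12316 genes of 0.532 to 0.814 in the 9 same-numbered pairs. The same number is therefore called a replicate series, although the labels do not say what its members share. The caudal epiblast markers summed to at least 590.8 TPM in every library. These markers include the members Nkx1-2 and Cdx2, and Nkx1-2 alone ran from 188.7 TPM in a CdxKO library to 417.1 TPM in a T/BraKO library. They also include T, so targets of both mutations are among them. The sum is therefore in part the members' own level and is no separate evidence of cell identity. Markers of intestinal epithelium, where Cdx1 and Cdx2 act in the adult, summed to at most 2.93 TPM, and 5 of 6 were under 1 TPM throughout. The 7 markers of trophectoderm, a lineage that Cdx2 specifies, summed to 105.4 to 352 TPM, but Elf5 and Gata3 stayed under 1 TPM. The lines also differed outside the named mutations. The Y-linked gene Ddx3y had 0 counts in every CdxKO library, against 1664 to 2754 normalised counts in the other groups, and Hprt had 3590 to 4138 normalised counts in T/BraKO against 16.8 to 28.1 elsewhere. Whether these differences bear on the results below was not tested.

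The promoter windows of the members are shown because the results turn on how far these genes moved together. Each RefSeq window of GRCm38.p6 covers 250 bases before and 50 bases after the annotated start of transcription, and 4 of the 5 members had an entry. Capitals mark the octamer core ATGCAAA, or TTTGCAT where it lies on the opposite strand, a sequence bound by POU factors such as OCT4.

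Cdx2: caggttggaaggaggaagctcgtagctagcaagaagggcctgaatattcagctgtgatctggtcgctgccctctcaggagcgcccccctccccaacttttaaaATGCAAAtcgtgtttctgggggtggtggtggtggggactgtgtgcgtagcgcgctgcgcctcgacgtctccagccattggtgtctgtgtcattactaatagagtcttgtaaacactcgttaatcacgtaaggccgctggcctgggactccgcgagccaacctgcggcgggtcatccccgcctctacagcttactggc

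Cdx4: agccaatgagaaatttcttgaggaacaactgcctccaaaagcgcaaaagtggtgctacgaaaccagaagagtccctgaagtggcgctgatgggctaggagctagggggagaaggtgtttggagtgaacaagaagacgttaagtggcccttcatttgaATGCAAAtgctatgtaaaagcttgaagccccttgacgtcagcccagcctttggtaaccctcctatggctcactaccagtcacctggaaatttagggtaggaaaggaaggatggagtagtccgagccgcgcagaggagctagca

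Evx1: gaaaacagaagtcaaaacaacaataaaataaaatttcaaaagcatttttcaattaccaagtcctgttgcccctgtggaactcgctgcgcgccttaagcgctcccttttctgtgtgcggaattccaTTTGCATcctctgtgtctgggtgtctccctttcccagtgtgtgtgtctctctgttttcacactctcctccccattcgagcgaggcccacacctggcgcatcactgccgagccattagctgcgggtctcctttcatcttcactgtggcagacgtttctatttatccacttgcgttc

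Nkx1-2: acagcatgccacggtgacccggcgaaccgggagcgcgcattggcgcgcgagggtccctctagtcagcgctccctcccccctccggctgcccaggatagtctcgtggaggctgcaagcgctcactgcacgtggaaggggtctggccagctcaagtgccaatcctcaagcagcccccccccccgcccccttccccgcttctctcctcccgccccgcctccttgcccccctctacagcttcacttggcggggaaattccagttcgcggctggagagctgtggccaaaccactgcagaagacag

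The windows lie at chr5:147307200-147307499 on the minus strand for Cdx2, at chrX:103321148-103321447 on the plus strand for Cdx4, at chr6:52313248-52313547 on the plus strand for Evx1 and at chr7:132599588-132599887 on the minus strand for Nkx1-2. The octamer core was present in Cdx2, Cdx4 and Evx1, beginning at positions -147, -93 and -125 relative to the start, and was not found in Nkx1-2. Over all 32851 promoter windows of this length, 4.63% held the core on either strand, and it was searched for only after the windows had been read. The TCF/LEF core CTTTGA, found in 16.0% of all windows, had no match in these 4 windows on either strand. The CDX core ATAAA occurred in Evx1 alone of the 4, at 3 places and on both strands, and was present in 40.0% of all windows. The T-box core GGTGTG likewise occurred in Evx1 alone, once and on the opposite strand, against 19.0% of all windows. None of the Evx1 matches overlapped another motif. Nkx1-2 had the highest GC content of the 4 at 67.3%, followed by Cdx2 at 57.3%, Cdx4 at 50.3% and Evx1 at 48.7%, with a median of 52.7% over all windows. A match is a description of the letters and not evidence of binding.

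The levels of the genes were compared with one another in TPM, the part of a library's transcripts that a gene supplies once transcript length is scaled out. Nkx1-2 was the most abundant of the 5 in every group, with a mean TPM of 273.5 ± 38.2 (SD, n = 3) in WT. It reached 227.5 ± 41.5 TPM in CdxKO and 366.6 ± 72.7 TPM in T/BraKO. In WT it ranked 535 of 24736 genes. Cdx2 came next in WT with 141 ± 58.8 TPM and rank 1140. The WT ranges of Nkx1-2 (230 to 301.4 TPM) and Cdx2 (92 to 206.1 TPM) did not overlap, and Nkx1-2 exceeded Cdx2 within each of the 9 libraries, by 1.46 to 8.86 times. Cdx1 at 22.3 ± 3.92 TPM and Evx1 at 15.8 ± 8.03 TPM overlapped in WT and could not be ordered. Cdx4 was the lowest member at 5.39 ± 2.37 TPM, with rank 10302. Which of Cdx1 and Evx1 was higher varied between libraries. The ratio of Cdx1 to Evx1 TPM was 2.03 to 3.89 in the series 2 libraries and 0.44 to 1.27 in the other 6. The series 1 libraries had ratios of 1.01 (WT), 0.73 (CdxKO) and 1.27 (T/BraKO).

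Cdx2 supplied most of the Cdx transcript in every library. The summed TPM of Cdx1, Cdx2 and Cdx4 was 232, 121.1 and 152.8 in WT replicates 1, 2 and 3, and 288.4, 168.3 and 197.2 in the T/BraKO replicates. In CdxKO the sum was 66.9, 37.5 and 33.1 TPM. All CdxKO libraries were thus below every library of the other groups. The Cdx2 share of the sum lay between 64.0% and 88.8%, and within each genotype it was lowest in replicate 2, where the Cdx1 share was highest (21.8% for WT, 35.8% for CdxKO and 24.9% for T/BraKO).

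**Figure D1:**
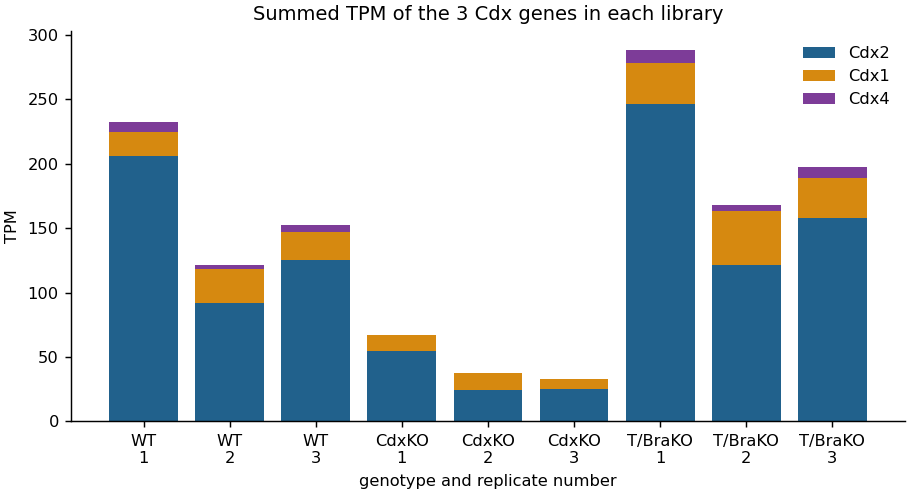
Summed TPM of Cdx2, Cdx1 and Cdx4 (vertical axis) in each of the 9 libraries, stacked by gene and ordered by genotype and replicate number. CdxKO libraries sum to 33.1 to 66.9 TPM and the other 6 to 121.1 to 288.4 TPM, and replicate 2 holds the smallest sum in WT and T/BraKO.

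The Cdx genes are the targets of the triple mutation, so the comparison of CdxKO with WT first asks how much transcript remained. Gene counts do not show which exons the reads came from, so a remaining count says nothing of protein. Cdx4 (chrX:103321398-103330592, plus strand) had 160.9, 60 and 133.3 normalised counts in WT replicates 1, 2 and 3. In CdxKO it had 1, 2 and 2 expected counts, at or below the floor of 3 counts in each library. Against that floor, the WT mean was 38.2-fold higher, and the lowest WT library was 15.9-fold higher. Cdx4 was called lower in CdxKO with or without the replicate block (adjusted p of 6.51e-16 and 2.12e-12), a block being a term for the replicate number in the fit.

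Cdx2 transcript fell but persisted. Cdx2 (chr5:147300805-147307270, minus strand) was at 6106, 2699 and 3793 normalised counts in WT, and at 1625, 706.3 and 760.9 in CdxKO. The groups did not overlap, and the CdxKO to WT ratio was 0.27, 0.26 and 0.20 in replicates 1, 2 and 3. The mean level was 4199 ± 1740 (SD, n = 3) in WT and 1031 ± 516 in CdxKO. The fitted log2 fold change was -2.03 (adjusted p = 0.0147, SE 0.51) and, with the block, -2.05 (adjusted p = 6.96e-132, SE 0.08). Without the block the call was lost when WT replicate 3, CdxKO replicate 2 or CdxKO replicate 3 was left out, with adjusted p values up to 0.141, and in the edgeR test (adjusted p = 0.261).

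Cdx1, on the minus strand of chromosome 18, kept the largest share of its WT level among the 3 Cdx genes. Its normalised counts were 444.4, 625.8 and 538.9 in WT and 302.2, 319.7 and 192.8 in CdxKO, and the groups did not overlap. The ratio to WT was 0.68, 0.51 and 0.36 in the 3 series. Its fitted log2 fold change was -0.98 (adjusted p = 0.00373, SE 0.22), or -1.0 (adjusted p = 4.56e-10, SE 0.14) with the block. The unblocked call was lost without WT replicate 2 (adjusted p = 0.0845) and in edgeR (adjusted p = 0.284). All 3 Cdx genes were therefore called lower with and without the block, where 0.358% of genes tested were called lower without it and 1.91% with it. None was higher, against 0.335% and 3.4% of all genes.

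Nkx1-2 (chr7:132594878-132599637, minus strand) retained most of its expression without the Cdx genes. WT had 7886, 5960 and 7757 normalised counts, and CdxKO had 7169, 4902 and 5954. The group ranges overlapped, yet CdxKO was below WT within each series, at 0.91, 0.82 and 0.77 of the WT count. The log2 fold change of -0.26 (SE 0.20) was not called without the block (adjusted p = 1.00). With the block it was -0.27 (adjusted p = 0.00122, SE 0.06), a mean level of 6008 ± 1135 in CdxKO against 7201 ± 1077 in WT (SD, n = 3). Without series 3 the blocked call was lost (adjusted p = 0.231).

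Evx1 (chr6:52313498-52318378, plus strand) was not called in this comparison by any test. Its normalised counts were 739.2, 268.9 and 911.8 in WT and 688.5, 263.4 and 733.7 in CdxKO. Replicate 2 of each genotype was far below the others, and the 2 groups overlapped almost wholly. The log2 fold change was -0.19 (adjusted p = 1.00, SE 0.59), and with the block -0.16 with a 95% interval of -0.42 to 0.095. The blocked interval does not include a fall of the size measured for Cdx1, but the interval without the block, -1.35 to 0.975, does.

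Markers of other cell types also differed in this comparison. The 5 markers of lateral and extraembryonic mesoderm summed to 21.3 to 26.0 TPM in CdxKO and 14.4 to 19.2 TPM in WT, without overlap. Hand1, a mesoderm transcription factor, was called higher in CdxKO without the block (2.44), and Hand1 and Bmp4 with it (2.46 and 0.59). Of 7 feeder fibroblast markers, 6 were tested with the block, where Col1a1 (0.94) and Col1a2 (0.43) were called higher and Thy1 lower (-0.73), and none was called without it. Of the naive pluripotency markers, 1 was called higher and none lower, without the block (6 tested) and with it (5 tested). With the block, 1 of 2 neural progenitor markers tested was called lower. Over all genes, 0.335% were called higher and 0.358% lower without the block, and 3.4% and 1.91% with it. The part of these markers in the results for the members was not tested.

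**Figure D2:**
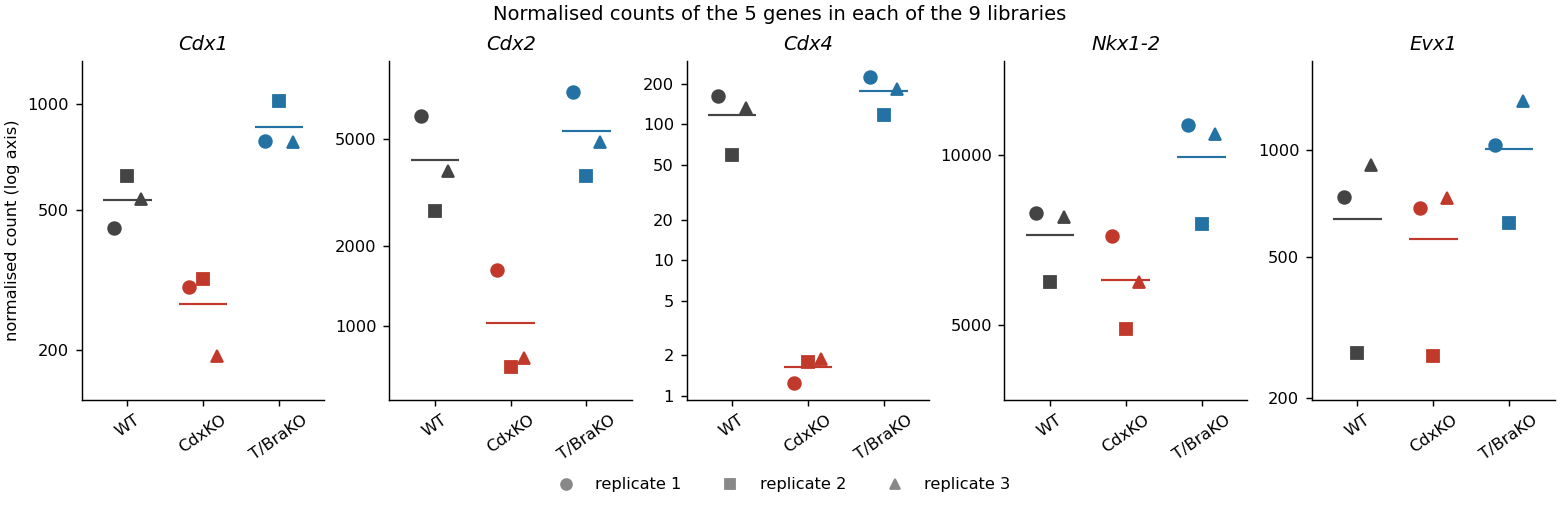
Normalised counts (log axis, a separate scale for each gene) of Cdx1, Cdx2, Cdx4, Nkx1-2 and Evx1 in each library, grouped by genotype. Symbols give the replicate number and horizontal lines the group means. CdxKO lies below WT without overlap for the 3 Cdx genes, with Cdx4 at 1 or 2 expected counts, while replicate 2 is the lowest library of its genotype for Nkx1-2 and Evx1.

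T/BraKO was compared with WT to ask whether loss of T altered the same genes. All 5 members were higher in T/BraKO than in the WT library of the same number, in every series. Without the block none was called, where 0.148% of all genes tested were called higher. With the block 4 of the 5 were called higher, against 4.83% of all genes tested. No member was called lower, where 0.937% of genes were without the block and 4.85% with it. The same WT libraries serve in the comparison with CdxKO.

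Cdx1 had 785.5, 1021 and 783.9 normalised counts in T/BraKO, all above the highest WT library at 625.8. The ratio to WT was 1.77, 1.63 and 1.46. Its log2 fold change was 0.69 (adjusted p = 0.131, SE 0.22) without the block and 0.68 (adjusted p = 2.40e-05, SE 0.13) with it. Cdx1 was also called without the block when the fit held only the 6 libraries compared (adjusted p = 0.025) or lacked CdxKO replicate 3 (adjusted p = 0.0143).

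Cdx2 had 7541, 3653 and 4868 normalised counts in T/BraKO, which overlapped the WT range. Within a series it was 1.24, 1.35 and 1.28 times the WT count. The log2 fold change was 0.35 (adjusted p = 1.00, SE 0.51), and with the block 0.37 (adjusted p = 1.45e-04, SE 0.08). The blocked call was lost without series 2 (adjusted p = 0.460). Cdx4 had 225.1, 117.2 and 183 normalised counts in T/BraKO and also overlapped WT, with ratios of 1.40, 1.96 and 1.37. Its log2 fold change of 0.57 (adjusted p = 1.00, SE 0.41) became 0.62 (adjusted p = 0.0965, SE 0.25) with the block, and only edgeR with the block called it (adjusted p = 0.0358).

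Nkx1-2 had 11260, 7541 and 10890 normalised counts in T/BraKO, at 1.43, 1.27 and 1.40 times WT. Replicates 1 and 3 were above every WT library, and replicate 2 lay within the WT range. Fitted without the block, the change was 0.46 on the log2 scale (adjusted p = 0.674, SE 0.20), and with the block 0.45 (adjusted p = 1.34e-10, SE 0.06). Evx1 had 1037, 622.8 and 1373 normalised counts in T/BraKO, at 1.40, 2.32 and 1.51 times WT. The groups overlapped because replicate 2 was low in each of them. This gave a log2 fold change of 0.66 (adjusted p = 1.00, SE 0.59), and with the block 0.75 (adjusted p = 3.01e-07, SE 0.13). The blocked calls of Cdx1, Nkx1-2 and Evx1 were kept when any series was left out.

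Other markers moved with this comparison. The 5 paraxial mesoderm markers (Msgn1, Tbx6, Meox1, Dll1 and Mesp2) summed to 8.25 to 11.3 TPM in T/BraKO, against 34.2 to 61.1 in WT and 26.2 to 84.4 in CdxKO. Of these markers, Meox1 and Mesp2 were under 1 TPM in every library. The lateral and extraembryonic mesoderm markers summed to 8.1 to 13.1 TPM in T/BraKO, below every WT library. With the block, Kdr (-0.99) and Bmp4 (-0.55) were called lower of 4 tested, and none of the 5 was called without it. With the block, the feeder fibroblast genes Col1a1 (-0.96), Col1a2 (-0.81) and Postn (-2.48) were also called lower. In the same fit, 2 of 4 trophectoderm markers tested and 1 of 5 naive pluripotency markers tested were called higher. Of 2 markers tested in each list, 1 neural progenitor and 1 definitive endoderm marker were called lower. No marker of these lineages was called without the block. Over all genes, 4.83% were called higher and 4.85% lower with the block. The part of these markers in the higher levels of the members was not tested. In bulk RNA, more cells of a type and more transcript per cell cannot be told apart. T itself had 1777, 2214 and 2894 normalised counts in T/BraKO and 10900, 11070 and 14760 in WT, so its transcript also persisted.

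A direct comparison of the mutants tests whether their departures from WT differ. Cdx1 was lower in CdxKO than in T/BraKO, at a log2 difference of -1.67 (adjusted p = 2.49e-11, SE 0.22). Cdx2 was lower by -2.38 on the log2 scale (adjusted p = 2.30e-04, SE 0.51), and the Cdx4 mean in T/BraKO was 56.7-fold above the CdxKO floor. Nkx1-2 was lower in CdxKO by -0.72 (adjusted p = 0.0133, SE 0.20), and no CdxKO library exceeded a T/BraKO library. Leaving out CdxKO replicate 2 or 3, or T/BraKO replicate 1 or 3, ended the unblocked Nkx1-2 call (adjusted p up to 0.181), as did edgeR (0.130). With the block its adjusted p was 1.99e-27, and it stayed called without any of the series. Evx1 was called lower only with the block, at -0.91 (adjusted p = 7.73e-11, SE 0.13), against -0.85 (adjusted p = 0.720, SE 0.59) without it. The members called lower were 4 of 5 without the block, against 0.962% of all genes, and 5 of 5 with it, against 6.9%. Cdx1, Cdx2 and Cdx4 are the targets of the mutation in CdxKO, so among the members only Nkx1-2 and Evx1 lie outside it. Genes called higher were 2.52% and 7.75% of those tested, and no member was among them.

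**Figure D3:**
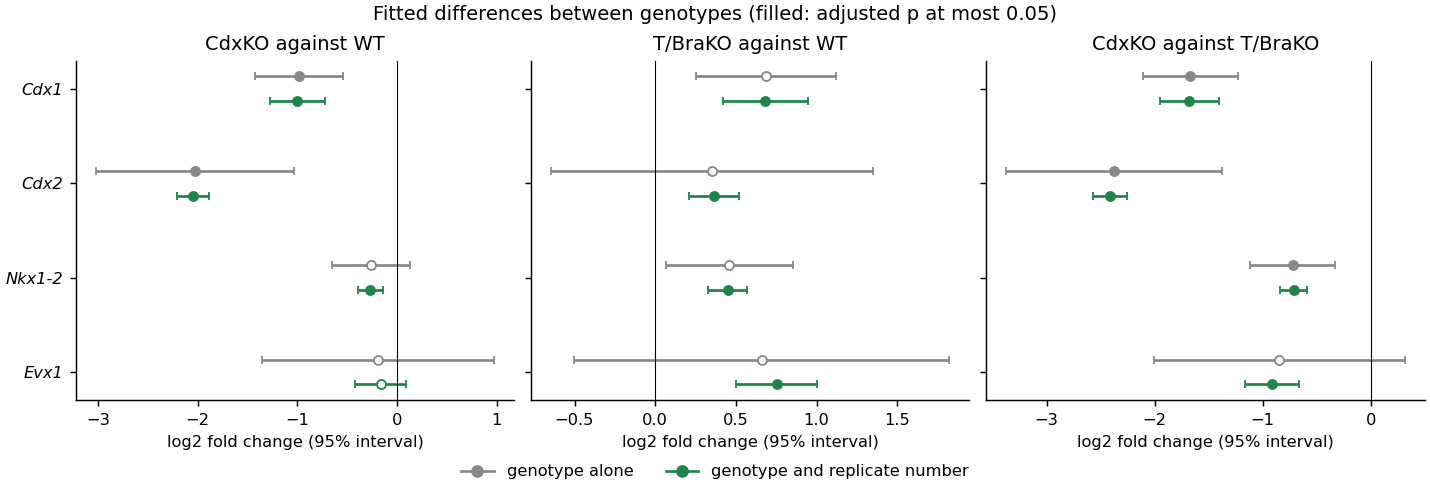
Fitted log2 fold changes (horizontal axis, with 95% intervals) of Cdx1, Cdx2, Nkx1-2 and Evx1 in the 3 comparisons of genotypes, from a fit with genotype alone and a fit with genotype and replicate number. Filled points have an adjusted p of at most 0.05. The estimates hardly move between the fits, but the intervals narrow, for Evx1 in T/BraKO against WT from an SE of 0.59 to 0.13. Cdx4 is left out because CdxKO lay at the counting floor.

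The replicate series separated the members as strongly as some genotypes did. In a fit with genotype and series, Evx1 was higher in series 1 than in series 2 by 1.17 on the log2 scale (adjusted p = 6.32e-17, SE 0.13) and in series 3 than in series 2 by 1.44 (adjusted p = 1.78e-26, SE 0.13). The ratio of series 3 to series 2 was 3.39 (WT), 2.79 (CdxKO) and 2.21 (T/BraKO). The largest fitted difference of Evx1 between series, 1.44, was larger in size than that between genotypes, -0.91, and the difference between these values was not tested. Cdx2 was highest in series 1 in all 3 genotypes, at 2.26, 2.30 and 2.06 times series 2 in WT, CdxKO and T/BraKO. Its log2 difference was 1.14 (adjusted p = 6.16e-42, SE 0.08) from series 2 and 0.79 (adjusted p = 1.30e-19, SE 0.08) from series 3.

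Cdx4, readable in WT and T/BraKO only, was 1.11 higher in series 1 (adjusted p = 0.00171, SE 0.30) and 0.85 higher in series 3 (adjusted p = 0.0145, SE 0.30) than in series 2 on the log2 scale. Starting from all 9 libraries, each Cdx4 difference was lost in 3 of 9 fits that left out a library. The library was WT replicate 1, WT replicate 2 or T/BraKO replicate 1 for the former (adjusted p up to 0.116), and WT replicate 2, WT replicate 3 or T/BraKO replicate 3 for the latter (up to 0.256). Nkx1-2 was 0.51 and 0.40 higher in series 1 and 3 than in series 2 (SE 0.06 for each, adjusted p = 5.81e-14 and 3.65e-09). Cdx1 ran the other way and had its highest count of every genotype in series 2. Its log2 difference between series 3 and series 2 was -0.42 (adjusted p = 0.0080, SE 0.14), a call that was lost without WT replicate 2, CdxKO replicate 3 or T/BraKO replicate 2 (up to 0.161). Its difference of -0.32 between series 1 and 2 was not called (adjusted p = 0.0619), but was without CdxKO replicate 1 or 3 (adjusted p down to 0.0072). So large a part of all genes differed between series (30.4% for 1 against 2, 41.9% for 3 against 2 and 17.2% for 1 against 3) that calls of members were common among genes at large.

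**Figure D4:**
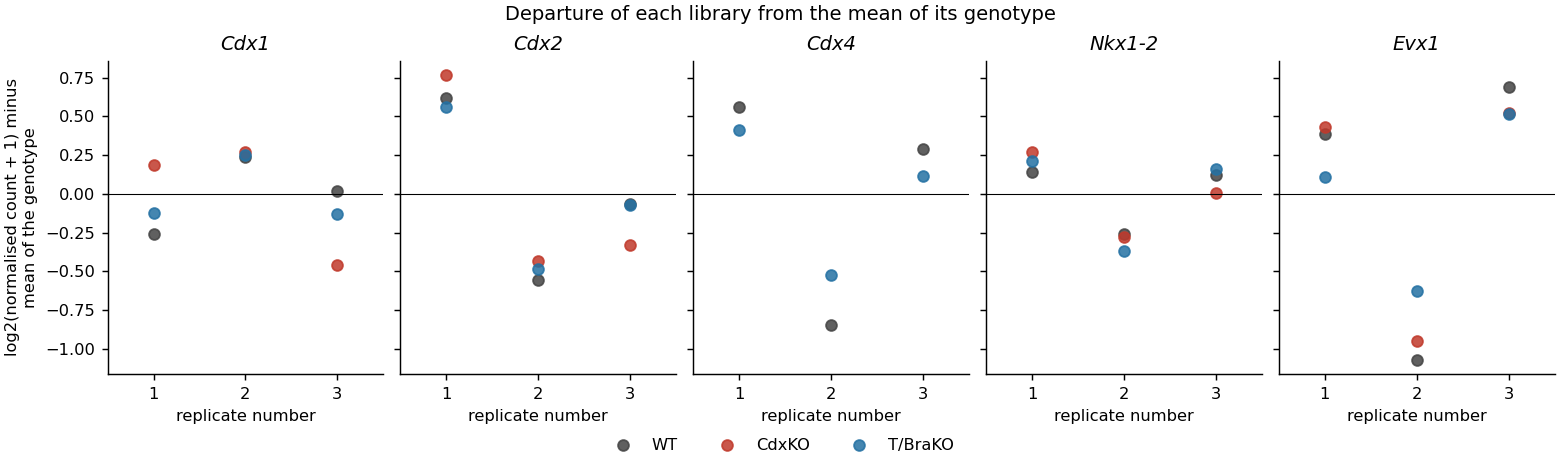
Departure of each library from its genotype mean, as log2(normalised count + 1), by replicate number for the 5 genes, with genotypes in colour. Cdx4 in CdxKO is left out because it lay at the counting floor. Replicate 2 is below the mean for Cdx2, Cdx4, Nkx1-2 and Evx1 and above it for Cdx1 in every genotype shown.

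Genes of the signalling pathways that feed Cdx transcription were read beside the series. The list mixes components of these pathways with genes that respond to them, so a call in it does not show a changed input to Cdx. Of 18 genes of the WNT, FGF and retinoic acid pathways, 17 were tested for series 1 against series 2, where 11 were higher and none lower, with a median log2 difference of 0.41 against 0.01 over all genes, and 30.4% of all genes were called in either direction. For series 3 against series 2, 6 were higher and 2 lower of 18, with a median of 0.09, a share near the 41.9% of all genes called. The 2 lower genes, Tcf7l1 and Aldh1a2, fell to 1 without WT replicate 2, CdxKO replicate 3 or T/BraKO replicate 3, and to 0 without WT replicate 3 or T/BraKO replicate 2. The FGF responsive genes Etv4, Etv5, Spry4 and Dusp6 were among the higher genes in both. Spry4, a feedback inhibitor of FGF signalling, was 1.78 higher in series 1 and 2.61 higher in series 3 than in series 2, and Etv4, an ETS factor, 1.26 and 1.77 higher. Lef1, which carries the WNT signal to DNA, was 0.60 and 0.74 higher. Aldh1a2, the enzyme that makes retinoic acid, was higher in series 1 (0.95) and lower in series 3 (-0.70) than in series 2.

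Other lists moved with the same series. Of 17 other genes of the caudal epiblast and its neuromesodermal progenitors, 9 were called higher and none lower in series 1 than in series 2. The median log2 difference was 0.45. For series 3 against series 2 the counts were also 9 and none, with a median of 0.55. Over all genes, 30.4% and 41.9% were called in either direction. Of 15 central and trunk Hox genes, 10 were tested for series 1 against series 2 and called higher, and 7 were higher and 1 lower of 12 tested for series 3 against series 2. Of 6 naive pluripotency markers, 4 were called lower in series 1 than in series 2 and 4 in series 3 than in series 2, with Nanog at -1.42 and -0.58. Of 5 definitive endoderm markers, 3 were called higher in series 1 and 5 in series 3, with Cer1 at 3.11 and 3.38. The Rn45s share was highest in series 1 of each genotype, at 1.69% (WT), 4.21% (CdxKO) and 3.69% (T/BraKO), against at most 0.992% in the other libraries. Whether any of these contributed to the series differences of the members was not tested.

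Between genotypes fewer of the 18 signalling genes were called. In CdxKO against WT, only Rarg, a retinoic acid receptor, was called, falling from a mean of 2555 normalised counts to 1785 (a log2 change of -0.52, adjusted p = 4.70e-05, SE 0.10). With the block, Aldh1a2 was also called, higher in CdxKO by 0.72 (adjusted p = 0.0428, SE 0.24). In T/BraKO against WT none was called without the block, and with it Etv4 (0.52), Lef1 (0.21) and Rxra (0.24) were called higher. The lists' medians in these comparisons were 0.02 and 0.06 on the log2 scale without the block, against 0.00 over all genes. Between CdxKO and T/BraKO only Rarg was called without the block (-0.70, adjusted p = 7.15e-11, SE 0.10). With the block 2 were higher and 4 lower in CdxKO, where 7.75% and 6.9% of all genes were. The higher genes were Aldh1a2 (1.37) and the FGF receptor gene Fgfr1 (0.18), and the lower ones Rarg (-0.70), Etv4 (-0.36), Rxra (-0.21) and Axin2 (-0.19), a feedback inhibitor of WNT signalling. Without series 1 none was higher, and without series 3 the lower genes numbered 2.

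The list of 17 other genes of the caudal epiblast and its neuromesodermal progenitors changed in part alike and in part oppositely in the mutants. In CdxKO against WT none was called higher and 2 lower without the block, and none higher and 7 lower with it, with a median of -0.25. Over all genes, 0.358% were called lower without the block and 1.91% with it. Wnt3a and Wnt8a, which encode WNT ligands of the posterior embryo, were the 2 called in both fits. Leaving out WT replicate 1 or CdxKO replicate 3 left 1 gene called without the block, edgeR without the block called none, and the 7 genes of the blocked fit fell to 1 without series 1. Wnt3a fell from a mean of 715.1 normalised counts to 267.1, a log2 fold change of -1.42 (adjusted p = 4.60e-04, SE 0.29). Wnt8a fell from 4661 to 2734, a change of -0.77 (adjusted p = 0.00511, SE 0.18). The block added Fgf8 (-0.65), Wnt5a (-0.84), Greb1 (-0.33), Sall4 (-0.31) and Lin28a (-0.25), which like Nkx1-2 were called only with the block.

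In T/BraKO against WT, 2 of the 17 were called higher and 4 lower without the block, and 5 higher and 5 lower with it. These counts fell to 1 and 2 without WT replicate 1 or T/BraKO replicate 2 in the unblocked fit, and to 3 and 3 without series 1 in the blocked fit. Over all genes, 0.148% were called higher and 0.937% lower without the block, and 4.83% and 4.85% with it. T, the target of the mutation in T/BraKO, is among the lower genes of the list in both fits. Sp5, a WNT responsive zinc finger gene, had 3137 normalised counts in WT and 5109 in T/BraKO (0.70, adjusted p = 6.19e-06, SE 0.12). Fgf17, an FGF ligand, had 241.9 and 414.1 (0.78, adjusted p = 0.00627, SE 0.19). The block added Sp8 (0.29), Wnt5a (0.55) and Sall4 (0.26), in the direction taken by the members. The 4 lower genes were T, Fgf8 (-1.56), Wnt3a (-1.18) and Rspo3 (-1.95), the last a secreted enhancer of WNT signalling, and the block added Wnt5b (-0.46). Wnt3a was thus called lower in both mutants without the block, and Fgf8 in both with it. Wnt5a and Sall4 were called in opposite directions in the mutants with the block. Between the mutants, 3 of the list, which includes T, were called higher in CdxKO and 5 lower without the block, and 3 and 9 with it. Over all genes, 2.52% were called higher and 0.962% lower without the block, and 7.75% and 6.9% with it. The unblocked higher count fell to 1 without CdxKO replicate 1, CdxKO replicate 3 or T/BraKO replicate 1, and the lower count to 3 without T/BraKO replicate 1 or 3.

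Trunk Hox genes, targets of CDX proteins, were read beside the Cdx genes. Of 15 central and trunk Hox genes, 14 were tested in CdxKO against WT without the block and 10 with it. In each fit 9 were called lower and none higher, where 0.358% and 1.91% of all genes were lower. In T/BraKO against WT, where the Cdx genes were higher within series, none of 14 tested was called without the block. With it, 1 of 7 tested was called higher, where 4.83% of all genes were. The median log2 fold change of those tested was 0.43 without the block and 0.61 with it, against 0 and 0.02 over all genes. Mean normalised counts in WT, CdxKO and T/BraKO were 166.7, 6.09 and 177.2 for Hoxb7 and 111.7, 0.418 and 210.9 for Hoxb6.

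The genes around the members were read to see whether a change spread along the chromosome. Within 100 kb of a member, 29 genes were in the table and 13 had a mean of at least 10 normalised counts. In CdxKO against WT only Hoxaas3, an antisense transcript of the HoxA cluster 98.4 kb from Evx1, was called, with 65.1 normalised counts in WT against 0 in CdxKO. Chic1, 25.9 kb from Cdx4, was at 662.2 normalised counts in WT, against 616 in CdxKO, and was not called (adjusted p = 1.00). The near absence of Cdx4 was thus not seen at its nearest well-expressed neighbour. Near Cdx2, which belongs to the ParaHox cluster, Pdx1, 25.0 kb away, stayed below 10 normalised counts in every group mean. Urad, 7.7 kb from Cdx2, had means of 12.8 (WT), 1.99 (CdxKO) and 14 (T/BraKO) and was called only between the mutants with the block (log2 fold change -3.27, adjusted p = 0.0124, SE 1.01).

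Of the 3 genes near Nkx1-2, Lhpp and Oat changed with it and Fgfr2 was not called. Lhpp, 11 kb away, had means of 4767, 4224 and 5748 normalised counts in WT, CdxKO and T/BraKO, and Oat, 18.5 kb away, had 10383, 9582 and 11916. Between CdxKO and T/BraKO both were called without the block (Lhpp -0.44, adjusted p = 0.00821, SE 0.12, and Oat -0.31, adjusted p = 0.0210, SE 0.09). With the block both were also higher in T/BraKO than in WT (0.26 and 0.20, adjusted p = 7.25e-04 and 0.00385). Nkx1-2, Oat and Lhpp thus held the same order of genotype means, T/BraKO above WT above CdxKO, and the fitted differences of the neighbours were smaller than those of Nkx1-2. Fgfr2, an FGF receptor gene whose annotated span includes Nkx1-2, had means of 424, 483.1 and 463.6 normalised counts in WT, CdxKO and T/BraKO, a different order, and was not called in any comparison of genotypes. Pdgfrb, 9.0 kb from Cdx1, went against it, with 265.7 normalised counts in T/BraKO and 497.5 in WT (-0.91, adjusted p = 0.0464, SE 0.26). Pdgfrb encodes a growth factor receptor of mesenchyme.

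Evx1os, the antisense gene at chr6:52308389-52314832 on the minus strand, overlaps Evx1 by 1335 bases. The libraries were strand-specific, and the study's methods ran RSEM with a strand setting, so reads in the overlap were assigned by strand. The WT libraries held 490.6, 126.7 and 550 normalised counts of Evx1os, the CdxKO libraries 482.8, 126.8 and 426.1, and the T/BraKO libraries 613.4, 342.6 and 674.5. Its pattern followed Evx1, with replicate 2 lowest in each genotype, and its TPM was 0.47 to 0.69 of that of Evx1 in all 9 libraries. It was lower in CdxKO than in T/BraKO with the block only (-0.83, adjusted p = 0.0340, SE 0.29).

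The genes whose levels ran closest to each member were ranked by Pearson correlation of log2(normalised count + 1) over the 9 libraries, among 12316 genes. The libraries share genotypes and series, so the values are descriptions. For Cdx2 the 5 closest were Fzd10, a WNT receptor gene (r = 0.994), Hoxa3 (0.991), Dtl, Hoxb7 and Hoxb6. For Cdx4 they were Cdkn1c (0.985), Ddx3y, Uty, Hoxb8 and Eif2s3y, of which Ddx3y, Uty and Eif2s3y are Y-linked and share with Cdx4 a near absence in CdxKO. For Cdx1 they were Eef2k (0.969), Pola2, Kit, Paics and Rnft1. Nkx1-2 ran closest to Sall3 (0.992), Mcm7, its neighbour Lhpp (0.975), Hnrnpdl and Kif7. Evx1 ran closest to Hnrnpm (0.99), Mab21l2, Sephs1, Rpl7l1 and Hmgb1. No gene was among the closest 5 of more than 1 member.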

How the data were processed

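The authors sequenced poly(A) RNA of 9 cultures as strand-specific single-end reads, which were trimmed with cutadapt 1.16 and quantified with STAR 2.5.2a and RSEM 1.3.0, with its strand setting, on RefSeq genes of mm10. The deposited values were RSEM's estimated (expected) counts per gene, not always whole, and TPM, scaled for transcript length within a library. Of the deposited expected counts, 3.75% to 4.00% per library were fractional, and all were rounded. The authors' TPM values were not tested.

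The study's methods name DESeq2 and an adjusted p of at most 0.05. The main test here was its Wald test (DESeq2 1.42.0 in R 4.3.3) with genotype as the term, all 9 libraries, DESeq2's own size factors and no shrinkage of log2 values, with a Benjamini-Hochberg adjusted p over all genes of at most 0.05. A block for replicate number was fitted beside it. Differences between series are the replicate terms of that blocked fit. The block was added since all 9 same-numbered pairs of libraries, numbered in their titles, deviated together (mean correlation 0.703, against -0.34 for 18 other pairs). Deviations were taken from each genotype's own mean, so a positive mean for same-numbered pairs forces a negative one for the others. The -0.34 is therefore no separate contrast. The labels call the samples biological replicates, and all 9 titles carry the same tag, EXP5, which the labels do not explain. The study's methods state that data came from independent experiments. No pair of libraries of a group agreed within sampling noise.

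Alternatives were TMM factors, a filter of 10 counts in 3 libraries, edgeR 4.0.16, fits to the libraries compared, leaving out each library and an adjusted p of at most 0.01. The members, gene lists and tests were chosen with earlier results of these data known. Named are the members, listed genes that were called, genes within 100 kb and the 5 genes closest to each member whose normalised counts averaged at least 50. Listed Sox genes, and others not called, are counted only. Coordinates are GENCODE M21 on GRCm38 (mm10), counted from 1. Total counts of 25124337 to 34705355 put the floor of 3 counts at 0.0864 to 0.119 CPM. A fold against the floor puts the floor in place of the lower counts seen in CdxKO. It includes no counting error of either group and no variation between cultures, so it is not a confidence bound. The fits were tested on simulated data. A few single genes are not reported here.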

Additional observations from a re-analysis of the deposited data

Results flagged for a closer look

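The departures of CdxKO and T/BraKO from WT differed for all 5 genes when the mutants were compared directly, which tests the difference itself. Cdx1, Cdx2 and Cdx4 are the targets of the mutation in CdxKO, and Nkx1-2 and Evx1 are not. The log2 fold change of CdxKO against T/BraKO was -1.67 for Cdx1, -2.38 for Cdx2 and -0.72 for Nkx1-2 without the block. For Cdx4 the fitted value was -6.71, which depends on the counting floor in CdxKO and is no measured change. For Evx1 the difference was called only with the replicate block, at -0.91.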

How the results depend on the processing

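Each comparison was recomputed under the alternatives. TMM factors and the filter on low counts changed no call of a member between genotypes, and neither did the fit to the 6 libraries compared, apart from Cdx1 in T/BraKO against WT (0.69).

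Replicate block. The replicate numbers pair the libraries. The counts of genes higher and lower went from 56 and 60 to 471 and 265 in CdxKO against WT, from 28 and 177 to 617 and 620 in T/BraKO against WT, and from 404 and 154 to 1157 and 1030 between the mutants. With the block on the 6 libraries compared, added after seeing the data, they were 447 and 204, 403 and 465, and 779 and 523. In edgeR without the block they were 5 and 11, 7 and 49, and 181 and 56, and in edgeR with the block 411 and 252, 625 and 757, and 1484 and 1240. The members that gained a call were Nkx1-2 in CdxKO against WT (-0.27 with the block, -0.26 in edgeR with it, -0.27 in the 6 libraries with it), and in T/BraKO against WT Cdx1 (0.68, 0.68 and 0.69), Cdx2 (0.37, 0.36 and 0.37), Nkx1-2 (0.45, 0.44 and 0.45) and Evx1 (0.75, 0.73 and 0.75). Evx1 gained one between the mutants (-0.91, -0.90 and -0.90), and Cdx4 in T/BraKO in edgeR with the block only (0.60). The block changed no other call of a member.

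Lost calls. EdgeR without the block lost Cdx1 (-0.98) and Cdx2 (-2.03) in CdxKO against WT and Nkx1-2 (-0.71) between the mutants. At an adjusted p of at most 0.01, Cdx2 in CdxKO (-2.03), Nkx1-2 between the mutants (-0.72) and Cdx4 in series 3 against 2 (0.85) were lost, and 28 genes were higher in CdxKO than WT, and 96 were lower between the mutants. The stricter limit left 1570 and 1283 genes for series 1 against 2 and 790 and 679 for series 1 against 3. In WT and T/BraKO alone, with fewer libraries, these were 1111 and 979, and 731 and 576, Cdx1 became called in series 1 against 2 (-0.43, as with TMM at -0.34), lost its call in series 3 against 2 (-0.30) and reversed in series 1 against 3 (-0.13). The cause was not tested.

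Libraries left out. Without 1 library at a time, the genes higher and lower numbered 20 to 76 and 33 to 64 in CdxKO against WT, 15 to 29 and 103 to 186 in T/BraKO against WT, 257 to 474 and 96 to 156 between the mutants, 1506 to 2172 and 1243 to 1806 for series 1 against 2, and 593 to 1355 and 561 to 1238 for series 1 against 3. The members with a changed call or sign ranged, in CdxKO against WT, from -1.12 to -0.79 (Cdx1), -2.52 to -1.66 (Cdx2) and -0.56 to 0.16 (Evx1, reversed without WT replicate 3 at 0.16 or CdxKO replicate 2 at 0.15). Cdx1 ranged from 0.55 to 0.81 in T/BraKO against WT and Nkx1-2 from -0.88 to -0.59 between the mutants. For series 1 against 2 the ranges were -0.49 to -0.18 (Cdx1) and 0.86 to 1.31 (Cdx4), for 3 against 2 -0.57 to -0.25 (Cdx1) and 0.59 to 1.05 (Cdx4), and for 1 against 3 -0.36 to -0.13 (Evx1, called without T/BraKO replicate 2) and -0.078 to 0.25 (Cdx1, reversed without CdxKO replicate 1 at -0.072 or replicate 3 at -0.078). With the block and without 1 series at a time, added after seeing the data, the counts were 105 to 369 and 71 to 157, 145 to 188 and 237 to 329, and 483 to 937 and 313 to 502, Cdx2 in T/BraKO against WT was 0.33 to 0.40 and Nkx1-2 in CdxKO against WT -0.33 to -0.21.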
